A study of Mus musculus with 9 samples.

Results

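The 10 genes described here encode WNT ligands, WNT receptors and secreted WNT antagonists: Wnt5a and Wnt9a, the frizzled receptors Fzd1 and Fzd2, and the antagonists Sfrp1, Sfrp2, Sfrp4, Frzb, Dkk3 and Wif1. They were chosen by gene symbol from the deposited expression table, which held 25468 genes. This choice, and that of the further lists below, was made with earlier results of these data known. Their counts beside the shares of all genes therefore describe the lists and do not test them. The values of the transcript entries of each gene were summed. Bulk RNA sequencing had been done on 9 heart libraries of wild-type mice, 3 after a sham operation, 3 from hearts 1 day and 3 from hearts 7 days after acute myocardial infarction. The labels do not say on which day the sham hearts were taken, so the same 3 sham libraries were the control at both times and the comparisons share them. Hearts of Hdc-/- mice, which the series text also mentions, were not analysed here. The labels give no strain, age, sex or infarct region. Whether each library stands for its own animal is not said either, so p-values measure the spread between these libraries.

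WNT ligands are secreted lipid-modified proteins that bind frizzled receptors on neighbouring cells. With LRP5 or LRP6 as co-receptor they stabilise beta-catenin, which switches on TCF/LEF target genes, and with ROR or PTK7 they act on the cytoskeleton without beta-catenin. Secreted frizzled-related proteins (SFRPs, among them FRZB) and WIF1 bind the ligands outside the cell, and DKK proteins are best known for binding the co-receptors, although DKK3 does so poorly. In the injured heart the pathway is known mostly from fibroblasts, epicardium and scar formation.

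Levels are given in FPKM (fragments sequenced, scaled to transcript length and library size). Group values are means ± SD over n = 3 libraries. Differences are on the scale log2(FPKM + 1), which understates the change of genes with low levels. Each is given with its standard error (SE) from limma, a linear model fitted over the 13514 genes with a mean of at least 1 FPKM, and its p-value adjusted with the Benjamini-Hochberg method over those genes. Adjusted p-values under 0.05 counted as a call. With 3 libraries a group the smallest p of a two-sided exact permutation test is 0.1, and that test was not used. The read depth behind a value is unknown.

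All 10 of 10 cardiomyocyte markers were found in every group, with summed levels of 34709 to 37946 FPKM in sham, 18053 to 22774 at day 1 and 14205 to 25225 at day 7. Several libraries stood apart in markers of other tissue. The summed airway epithelium markers (6 of 6 found) were 213 FPKM in sham replicate 1 and 1626 FPKM in day 1 replicate 2, against at most 18.2 FPKM in the other 7 libraries. The 5 atrial markers summed to between 229 and 11057 FPKM, with the highest values in day 1 replicate 1 and day 7 replicate 1. Day 7 replicate 2 was highest in T and B cell markers (7 of 8 found), with 55.9 FPKM against at most 14.6, and in skeletal muscle markers (6 of 6 found), with 198 FPKM against at most 23.1. The 6 adipocyte markers (6 of 6 found) summed to 544 FPKM in sham replicate 1, against 5.30 and 2.37 FPKM in the other sham libraries and at most 141 FPKM in the infarct libraries. None of the lists' matched genes was at 0 in all 9 libraries. Because the tissue was measured in bulk, a change in the number of cells of a type and a change in RNA per cell cannot be told apart.

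At day 7 after infarction, 7 of the 10 genes were higher than in sham hearts and none was lower: Sfrp2, Frzb, Sfrp1, Sfrp4, Fzd1, Fzd2 and Wnt9a. Of all genes tested, 15.7% were called higher and 17.3% lower in that comparison. Sfrp4 was tested only because its day 7 level was high, and without it the count at day 7 is 6 of 9. At day 1 after infarction only Fzd1 of the 10 was called, against 13.4% of all genes called higher and 14.7% called lower. Between day 1 and day 7 the levels of Sfrp2, Sfrp1, Frzb, Wnt9a and Fzd1 rose, 5 of 10, against 2.71% of all genes called higher and 2.14% called lower. By limma no member was called lower in any of the 3 comparisons, also at an unadjusted p under 0.05, where 2 were higher at day 1, 8 at day 7 and 7 at day 7 against day 1. The median difference of the 10 genes was 0.30 at day 1, 1.26 at day 7 and 0.86 between the days, where the medians of all genes tested were -0.01, -0.02 and -0.01. Without the libraries that carried airway markers, the counts called higher were 0 at day 1, 5 at day 7 (Sfrp1, Sfrp2, Frzb, Wnt9a and Fzd1) and 0 between the days. Leaving out day 1 replicate 3 alone gave 3 at day 1 (Fzd1, Sfrp2 and Dkk3), and leaving out day 1 replicate 2 alone gave 2 between the days. Rescaling each library to a common total (TPM) put the median difference of all genes at 0.23 at day 1 and 0.30 at day 7, a shift of 0.24 and 0.31 from the values as deposited. With it the share of all calls that were higher went from 47.7% to 80.3% at day 1 and from 47.6% to 87.8% at day 7, and the members called higher numbered 1, 8 and 2.

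**Figure D1:**
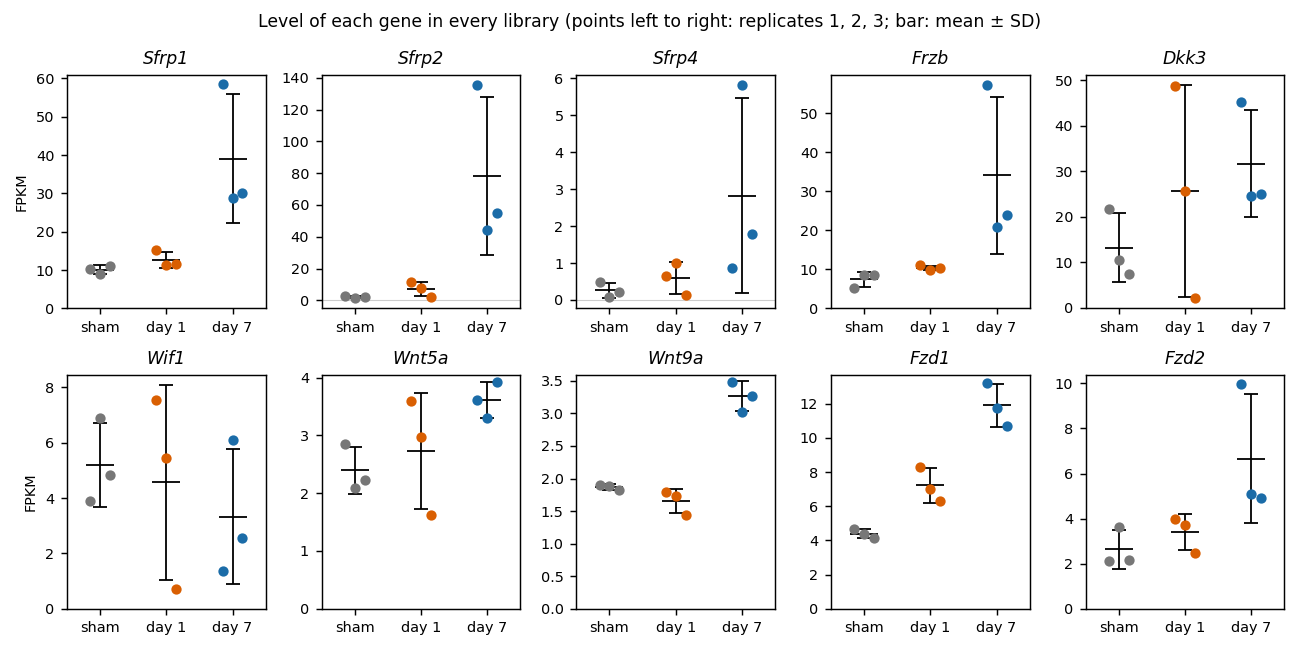
FPKM of each of the 10 genes (y axis, linear) in sham, day 1 and day 7 hearts, 1 point a library, with bars for the mean ± SD. The 3 day 7 libraries of Sfrp2 lie between 44.6 and 135 FPKM, above all sham libraries, while the 3 groups of Wif1 overlap.

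**Figure D2:**
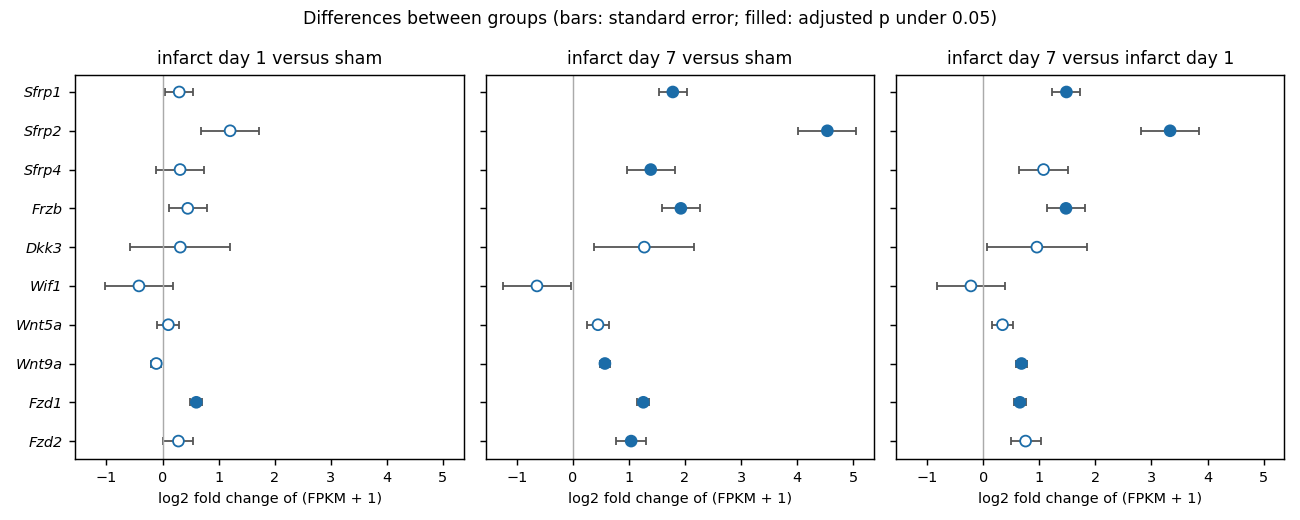
Log2 differences of (FPKM + 1) between groups (x axis) for each of the 10 genes, with bars for the standard error and filled points for an adjusted p under 0.05. In the middle panel 7 genes are called at day 7 against sham, with Sfrp2 farthest to the right at 4.54.

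RefSeq promoters of build GRCm38.p6 could be matched by symbol to 5 of the 10 genes (Sfrp2, Frzb, Wif1, Wnt9a and Fzd1). The 250 bases before the annotated start are printed for the 4 of these that were called higher at day 7. They share that call but not their course at day 1, and shared regulation was not tested. That build is another than the one the authors aligned to. Each sequence reads 5′ to 3′ on the strand of its gene. Capitals mark matches, on either strand, to 6 motifs. These are CTTTGAT for TCF/LEF factors, GGAATG for TEAD factors, TGANTCA for AP-1, TATAAA for the TATA box, CCAAT for the CCAAT box and GGGCGG for the GC box.
Sfrp2, chr3:83766071-83766320, plus strand: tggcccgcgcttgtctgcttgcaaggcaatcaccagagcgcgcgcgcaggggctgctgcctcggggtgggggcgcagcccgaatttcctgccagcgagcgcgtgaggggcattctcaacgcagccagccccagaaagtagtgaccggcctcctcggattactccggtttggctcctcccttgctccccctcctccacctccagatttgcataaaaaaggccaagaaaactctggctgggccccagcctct
Frzb, chr2:80447397-80447646, minus strand: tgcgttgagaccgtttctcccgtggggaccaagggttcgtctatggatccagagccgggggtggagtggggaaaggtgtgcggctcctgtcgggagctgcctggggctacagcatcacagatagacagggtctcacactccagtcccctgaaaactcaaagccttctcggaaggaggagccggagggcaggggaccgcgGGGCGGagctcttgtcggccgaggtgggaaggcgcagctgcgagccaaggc
Wnt9a, chr11:59306680-59306929, plus strand: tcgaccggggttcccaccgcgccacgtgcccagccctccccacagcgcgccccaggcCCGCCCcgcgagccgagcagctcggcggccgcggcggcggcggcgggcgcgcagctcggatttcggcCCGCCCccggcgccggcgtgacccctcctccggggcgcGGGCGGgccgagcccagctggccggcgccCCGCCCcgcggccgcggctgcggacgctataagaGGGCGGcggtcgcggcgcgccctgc
Fzd1, chr5:4758217-4758466, minus strand: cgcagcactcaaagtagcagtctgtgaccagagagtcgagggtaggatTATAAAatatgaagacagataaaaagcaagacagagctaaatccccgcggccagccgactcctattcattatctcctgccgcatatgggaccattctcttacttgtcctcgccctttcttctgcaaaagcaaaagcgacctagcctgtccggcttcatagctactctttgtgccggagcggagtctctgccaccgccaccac
The capitals show 5 matches to the GC box letters in the Wnt9a promoter and 1 in that of Frzb, 51 bases before the start. The Fzd1 promoter held the letters TATAAA at 202 bases before the start, and the Sfrp2 promoter matched none of the 6 motifs. Only full matches were counted, so near matches are not marked, and a match does not show a working element. Over the 32851 promoters of the same length in that table, the GC box letters were in 32.7%, those of the TATA box in 12.4% and those of the CCAAT box in 33.8%. The TEAD letters were in 12.6%, those of AP-1 in 6.75% and those of TCF/LEF in 3.21%. The TCF/LEF, TEAD and AP-1 letters were in none of the 5 member promoters, which says only that those letters are not in these windows. GC content was 84.4% for Wnt9a, 64.4% for Frzb, 63.6% for Sfrp2 and 51.2% for Fzd1, against a median of 52.4% over all promoters. The Wnt9a promoter had 48 CpG sites, those of Sfrp2 and Frzb 16 each and that of Fzd1 12, where the median was 6.

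Of the ligands, Wnt9a rose by day 7 and Wnt5a did not pass the test. Wnt9a, known from joint and limb development and from blood stem cells, stood at 1.90, 1.88 and 1.82 FPKM in sham replicates 1 to 3. It was at 1.80, 1.73 and 1.45 FPKM at day 1 and at 3.48, 3.03 and 3.27 FPKM at day 7. All day 7 libraries were above the other 6, and all day 1 libraries were below sham. The mean went from 1.87 ± 0.0431 FPKM in sham to 3.26 ± 0.229 FPKM at day 7, a ratio of 1.75. The difference was 0.57 (SE 0.09; limma, adjusted p = 0.00507). Against day 1 it was 0.68 (SE 0.09; adjusted p = 0.0105). At day 1 it was -0.11 (SE 0.09; adjusted p = 0.394), and with TPM scaling 0.077, so no direction can be given there. Nearly all of the Wnt9a signal in each group was in 1 of its 2 transcript entries.

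Wnt5a, the ligand best known for signalling without beta-catenin, was at 2.86, 2.10 and 2.23 FPKM in sham hearts. It was at 3.6, 2.97 and 1.62 FPKM at day 1 and at 3.61, 3.31 and 3.93 FPKM at day 7. The day 7 libraries did not overlap sham, but they overlapped day 1, whose lowest library was replicate 3. The day 7 difference was 0.45 (SE 0.19; limma, adjusted p = 0.107), with a 95% confidence interval from 0.0040 to 0.89. With TPM scaling it was 0.78 with an adjusted p of 0.0467. At day 1 the difference was 0.10 (SE 0.19; adjusted p = 0.724). Wnt5a has 2 transcript entries, and the longer one, Wnt5a-201, held 44.9% of the gene's FPKM in sham, 46.6% at day 1 and 55.2% at day 7. An antisense gene, Gm2670, overlaps Wnt5a, and no source used here says whether counting used strand, so reads of the 2 genes cannot be told apart.

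Both receptors rose by day 7, and Fzd1 had already risen at day 1. Fzd1, a receptor for several WNT ligands, was at 4.66, 4.39 and 4.12 FPKM in sham, 8.29, 7.03 and 6.31 FPKM at day 1 and 13.2, 11.8 and 10.7 FPKM at day 7. The 3 groups did not overlap one another. The mean was 4.39 ± 0.272 FPKM in sham, 7.21 ± 1.00 FPKM at day 1 and 11.9 ± 1.27 FPKM at day 7, ratios to sham of 1.64 and 2.71. The differences from sham were 0.60 at day 1 (SE 0.11; limma, adjusted p = 0.00736) and 1.26 at day 7 (SE 0.11; adjusted p = 0.000905). Between the days the difference was 0.65 (SE 0.11; adjusted p = 0.0205). Without the libraries that carried airway markers the day 1 difference was 0.65 with an adjusted p of 0.0649.

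Fzd2, a close relative of Fzd1 and a known receptor for WNT5A, was at 2.12, 3.63 and 2.16 FPKM in sham and at 4.0, 3.72 and 2.48 FPKM at day 1. It was at 9.97, 5.10 and 4.91 FPKM at day 7. All day 7 libraries were above the other 6, replicate 1 the most, while sham and day 1 overlapped. The day 7 mean was 6.66 ± 2.87 FPKM against 2.64 ± 0.857 FPKM in sham, a difference of 1.04 (SE 0.27; limma, adjusted p = 0.0202). This call was lost in 4 of 20 alternatives, each of which left out libraries. Between the days the difference was 0.76 (SE 0.27; adjusted p = 0.137), and at day 1 it was 0.28 (SE 0.27; adjusted p = 0.457).

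Within the frizzled family (10 genes), the summed level was 40.9 ± 3.17 FPKM in sham, 39.9 ± 2.72 FPKM at day 1 and 57.2 ± 7.99 FPKM at day 7. Fzd1 made up 10.8 ± 0.753% of it in sham, 18.0 ± 1.29% at day 1 and 20.9 ± 1.96% at day 7. The share of Fzd2 was 6.38 ± 1.61%, 8.47 ± 1.54% and 11.4 ± 3.25%. Fzd4, the frizzled gene with the highest level in every group and a known endothelial receptor, went from 50.8 ± 0.750% to 37.9 ± 4.60% and 33.0 ± 5.07%. Its own level fell at day 1, from 20.8 FPKM to 15.02 FPKM, by 0.44 on the log2 scale (SE 0.10; limma, adjusted p = 0.0144), a call that TPM scaling removed.

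The secreted antagonists held the widest range of differences. Sfrp2, an SFRP made by fibroblasts, had the second largest day 7 difference from sham of all 13514 genes tested. Its levels were 2.5, 1.65 and 2.01 FPKM in sham, 11.3, 7.50 and 2.26 FPKM at day 1 and 135, 44.6 and 55.2 FPKM at day 7. Day 7 lay above the other groups in every library, while at day 1 replicate 3 was inside the range of sham. The means were 2.05 ± 0.424, 7.03 ± 4.56 and 78.4 ± 49.6 FPKM, and the day 7 mean was 38.2 times that of sham. The difference was 4.54 (SE 0.52; limma, adjusted p = 0.00210), and 4.06 without day 7 replicate 1, the highest library. Against day 1 it was 3.33 (SE 0.52; adjusted p = 0.0158). At day 1 it was 1.20 (SE 0.52; adjusted p = 0.115, confidence interval 0.026 to 2.38). Without day 1 replicate 3 that difference was 1.76 with an adjusted p of 0.0228. An antisense gene, Gm26771, overlaps Sfrp2, so that without strand the reads of the 2 cannot be told apart.

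Sfrp1 and Frzb also rose by day 7. Sfrp1, a WNT-binding antagonist, was at 10.3, 8.89 and 11.1 FPKM in sham, 15.2, 11.4 and 11.5 FPKM at day 1 and 58.5, 28.7 and 30.1 FPKM at day 7. The groups did not overlap. The day 7 mean of 39.1 ± 16.8 FPKM was 3.87 times the sham mean of 10.1 ± 1.11 FPKM, with a difference of 1.78 (SE 0.25; limma, adjusted p = 0.00338). Against day 1 the difference was 1.48 (SE 0.25; adjusted p = 0.0206). The day 1 difference of 0.30 (SE 0.25; adjusted p = 0.403) did not pass the test.

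Frzb, also called Sfrp3 and first described in cartilage, was at 5.28, 8.6 and 8.69 FPKM in sham, 11.02, 9.87 and 10.4 FPKM at day 1 and 57.4, 21.0 and 24.0 FPKM at day 7. Here too the 3 groups did not overlap, and day 7 replicate 1 was the highest library. Its mean went from 7.52 ± 1.94 FPKM in sham to 34.1 ± 20.2 FPKM at day 7, a ratio of 4.53 and a difference of 1.93 (SE 0.34; limma, adjusted p = 0.00654). Against day 1 the difference was 1.48 (SE 0.34; adjusted p = 0.0453), a call that was lost in 13 of 21 alternatives. At day 1 it was 0.45 (SE 0.34; adjusted p = 0.350). Counting members whose groups did not overlap, 3 were higher at day 1 (Sfrp1, Frzb and Fzd1) and 1 was lower (Wnt9a), where 22.5% and 25.1% of all genes did so. At day 7 against sham 9 were higher, all but Wif1, against 25% of all genes, and none lower, against 28.8%. At day 7 against day 1, 6 were higher and none lower, against 13.1% and 14.1% of all genes.

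Sfrp4, an SFRP linked to bone and to fat tissue, had the lowest level of the 10 genes. It was at 0.487, 0.0792 and 0.226 FPKM in sham, 0.652, 0.997 and 0.142 FPKM at day 1 and 0.853, 5.82 and 1.79 FPKM at day 7. The day 7 libraries lay above sham but overlapped day 1, and replicate 2 stood well above the other 8. Sfrp4 passed the filter of a mean of 1 FPKM only through its day 7 libraries, so its call is no support, although the counts of the 10 members include it. The difference was 1.39 (SE 0.43; limma, adjusted p = 0.0384), and 8 of 19 alternatives removed the call, with adjusted p from 0.0207 to 0.113. Over the 9 libraries its log2 level had a Pearson correlation of 0.89 with the summed T and B cell markers, a description of libraries that share day 7 replicate 2 as the highest in both. It was 0.74 with the skeletal muscle sum, also highest in that library, and 0.57 with the Schwann and nerve sum. For the deviations from the group means the values were 0.96, 0.68 and 0.75 in that order. The T and B cell sums were 1.02 to 3.01 FPKM in sham, 2.08 to 14.6 FPKM at day 1 and 2.36 to 55.9 FPKM at day 7. The part of these lists in the result was not tested.

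Dkk3, the most divergent member of the DKK family, varied widely within each group. It was at 21.7, 10.5 and 7.39 FPKM in sham, 48.9, 25.8 and 2.16 FPKM at day 1 and 45.3, 24.6 and 25.1 FPKM at day 7. The day 7 libraries were all above sham, yet the day 1 libraries spanned the whole range of the other groups. The differences were 0.32 at day 1 (SE 0.89; limma, adjusted p = 0.820) and 1.27 at day 7 (SE 0.89; adjusted p = 0.291, confidence interval -0.75 to 3.30). Without day 1 replicate 3 they were 1.49 with an adjusted p of 0.0485 and 1.27 with an adjusted p of 0.0484. The level followed the sum of the 5 atrial markers, which was 2677, 1446 and 229 FPKM in sham, 11057, 4361 and 282 FPKM at day 1 and 5405, 775 and 1398 FPKM at day 7. The markers did not always move together. In sham replicate 2 Nppa was at 1413 FPKM, where Myl7 was at 13.2, Myl4 at 14.6 and Sln at 5.19 FPKM. The sum, and the correlations with it, therefore need not stand for atrial tissue in every library. The correlation of the log2 values over the 9 libraries was 0.85, and 0.93 for the deviations from the group means. The part of the atrial markers in the values of Dkk3 was not tested. Without the pair of libraries highest in them, chosen after the values were seen, the difference of Dkk3 was -0.50 at day 1 and 0.99 at day 7, not called in either. The deviations of 5 other members from their group means also correlated with those of the atrial sum. They did so at 0.91 for Wnt9a, 0.85 for Sfrp2, 0.84 for Fzd1, 0.82 for Wnt5a and 0.67 for Fzd2. The atrial list was not alone in this. With the resting fibroblast sum the values were 0.85 for Dkk3 and Wnt9a, 0.83 for Fzd1, 0.82 for Sfrp2, 0.75 for Wnt5a and 0.70 for Fzd2. Deviations of Dkk3 also correlated with the adipocyte sum at 0.73 and the airway sum at 0.69. The part of these lists in the levels was not tested either. Without the pair of libraries with the highest atrial sums the day 7 differences of Sfrp2 (4.06), Fzd1 (1.18) and Wnt9a (0.53) were called, and that of Fzd2 (0.75) was not. At day 7 this left out replicate 1, also the highest in the activated fibroblast sum, so the part of each cannot be told apart. Its atrial sum ranked above that of day 1 replicate 2, with higher Nppa (3465 against 2235 FPKM), Myl4 (1053 against 779) and Sln (386 against 377). Myl7 (497 against 928 FPKM) and Bmp10 (3.16 against 42.0 FPKM) went the other way.

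Wif1, which binds WNT ligands directly, was at 3.91, 6.88 and 4.83 FPKM in sham, 7.56, 5.46 and 0.698 FPKM at day 1 and 1.36, 6.08 and 2.56 FPKM at day 7. All 3 groups overlapped. The means were 5.21 ± 1.52, 4.57 ± 3.52 and 3.33 ± 2.45 FPKM. The differences were -0.42 at day 1 (limma, adjusted p = 0.634; SE 0.60) and -0.64 at day 7 (adjusted p = 0.432; SE 0.60). The confidence interval of the day 7 difference ran from -2.00 to 0.72 and so held differences in either direction.

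**Figure D3:**
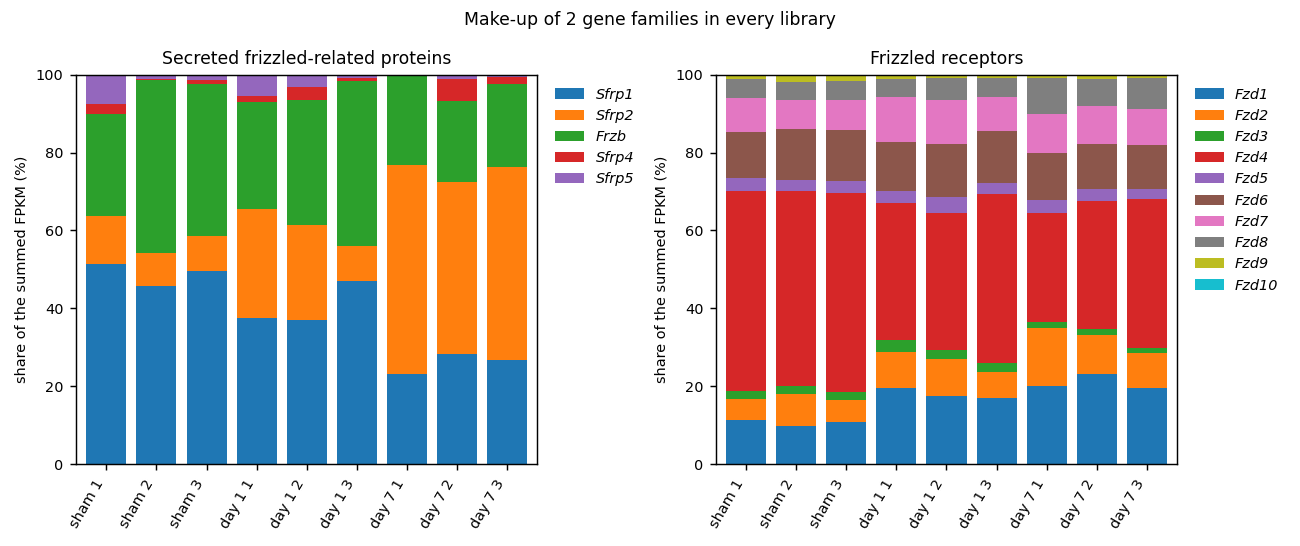
Share of each gene in the summed FPKM (y axis, percent) of the secreted frizzled-related proteins and of the frizzled receptors, 1 stacked bar a library. Sfrp2 grew from a mean share of 9.97% in sham to 49.0% at day 7, and Fzd1 from 10.8% to 20.9%.

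The make-up of the SFRP family (5 genes) shifted with these differences. Its summed level was 20.6 ± 1.5 FPKM in sham, 31.9 ± 8.02 FPKM at day 1 and 155 ± 84.3 FPKM at day 7. Sfrp2 made up 9.97 ± 2.12% of the sum in sham, 20.6% at day 1 (28.1, 24.4 and 9.21% in replicates 1 to 3) and 49.0 ± 4.82% at day 7. In the same groups Sfrp1 went from 48.9 ± 2.84% to 40.5 ± 5.56% and 26.2 ± 2.66%, although its level rose. The share of Frzb was 36.5 ± 9.26%, 33.9 ± 7.68% and 21.6 ± 1.04%. Dkk3 was 98.5% of the summed DKK family in sham and 98.3% at day 7. Among 19 WNT ligands, of which 6 had a mean of at least 1 FPKM, the sum was 10.5 ± 2.67 FPKM in sham and 19.2 ± 1.28 FPKM at day 7. Wnt9a was 18.4% and 17.1% of it, and Wnt5a 23.2% and 19.0%. The 6 antagonists among the members summed to 38.3 ± 5.25 FPKM in sham, 60.9 ± 33.8 FPKM at day 1 and 189 ± 94.8 FPKM at day 7. The 2 ligands summed to 4.26 ± 0.431 and 6.88 ± 0.474 FPKM in sham and at day 7, and the 2 receptors to 7.03 ± 0.895 and 18.6 ± 4.06 FPKM.

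The order of the levels changed with it. In sham the order from the highest mean down was Dkk3, Sfrp1, Frzb, Wif1, Fzd1, Fzd2, Wnt5a, Sfrp2, Wnt9a and Sfrp4. Neighbours in that order overlapped except Sfrp1 and Frzb, Fzd1 and Fzd2, and Wnt9a and Sfrp4. At day 7 Sfrp2 was first and was followed by Sfrp1, Frzb, Dkk3, Fzd1, Fzd2, Wnt5a, Wif1, Wnt9a and Sfrp4. The libraries of Dkk3 did not overlap those of Fzd1, nor Fzd1 those of Fzd2, nor Fzd2 those of Wnt5a, and the other neighbours overlapped. Among all genes tested, the mean level of Sfrp2 stood at percentile 16.7 in sham, 45.1 at day 1 and 94.7 at day 7. Fzd1 moved from percentile 33.7 to 46.0 and 62.8, and Wif1 from 37.8 to 32.4 and 24.0.

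Most fibroblast markers were higher at day 7, as were Sfrp1, Sfrp2 and Frzb. The 12 resting fibroblast markers (12 of 12 found, none at 0) summed to 1928 to 2141 FPKM in sham, 1329 to 2025 FPKM at day 1 and 2506 to 2860 FPKM at day 7. The 15 activated fibroblast markers (15 of 15 found, none at 0) summed to 553 to 859 FPKM in sham, 1642 to 1982 FPKM at day 1 and 4136 to 6594 FPKM at day 7. At day 7, 8 of the 12 resting and 12 of the 15 activated markers were called higher than sham and none lower. Among all genes 15.7% were called higher and 17.3% lower. The difference was above 0 for 10 of the 12 resting markers. Gsn, with a high level, went the other way, from 689, 741 and 479 FPKM in sham to 253, 467 and 432 FPKM at day 7. The resting sum therefore mixes both directions. Day 7 replicate 1, the highest library for Sfrp1, Sfrp2, Frzb, Fzd1, Fzd2 and Wnt9a, was also the highest in the activated fibroblast sum. It had the lowest cardiomyocyte sum, at 14205 FPKM, and the lowest FPKM total, at 521643. Mitochondrial genes held 24.4% of its FPKM, against 34.2% to 39.8% in the other libraries. The part of this make-up in the result was not tested. Over the 9 libraries the log2 level of Fzd1 had a Pearson correlation of 0.97 with that of the activated sum, and Sfrp2 had 0.93. Sfrp1 and Frzb had 0.90 each, Fzd2 0.83, Wnt9a 0.75, Sfrp4 0.65, Wnt5a 0.64, Dkk3 0.46 and Wif1 -0.35. These describe libraries that share their groups. At day 1 the highest library of the resting sum was within the range of sham. The 8 mesothelial and epicardial markers summed to 9.11 to 42.5 FPKM in sham and 67.8 to 84.9 FPKM at day 7. Their part in the result was not tested. Per 1000 FPKM of the resting fibroblast sum, Sfrp2 was at 1.03 ± 0.255 in sham, 3.99 ± 2.04 at day 1 and 28.8 ± 16.1 at day 7. Per 1000 FPKM of the activated sum it was at 3.27 ± 1.12, 3.65 ± 2.22 and 14.7 ± 5.12. Sfrp1 per 1000 FPKM of the resting sum was at 5.07 ± 0.821 in sham and 14.5 ± 5.15 at day 7. Per 1000 FPKM of the activated sum it went the other way, with 15.8 ± 2.90 in sham and 7.62 ± 1.09 at day 7. Fzd1 per 1000 FPKM of the resting sum was at 2.19 ± 0.178 in sham, 4.41 ± 0.328 at day 1 and 4.49 ± 0.304 at day 7. Per 1000 FPKM of the activated sum Fzd1 fell, with 7.04 ± 1.96, 3.88 ± 0.347 and 2.45 ± 0.422. Among the members only Sfrp2 and Sfrp4 had a higher mean at day 7 than in sham per 1000 FPKM of the activated sum. For Sfrp4 the groups overlapped, with 0.882, 0.142 and 0.263 in sham and 0.129, 1.41 and 0.420 at day 7. Only day 7 replicate 2 was above the sham libraries there. Per 1000 FPKM of the resting sum only Wif1 had a lower mean at day 7 than in sham.

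**Figure D4:**
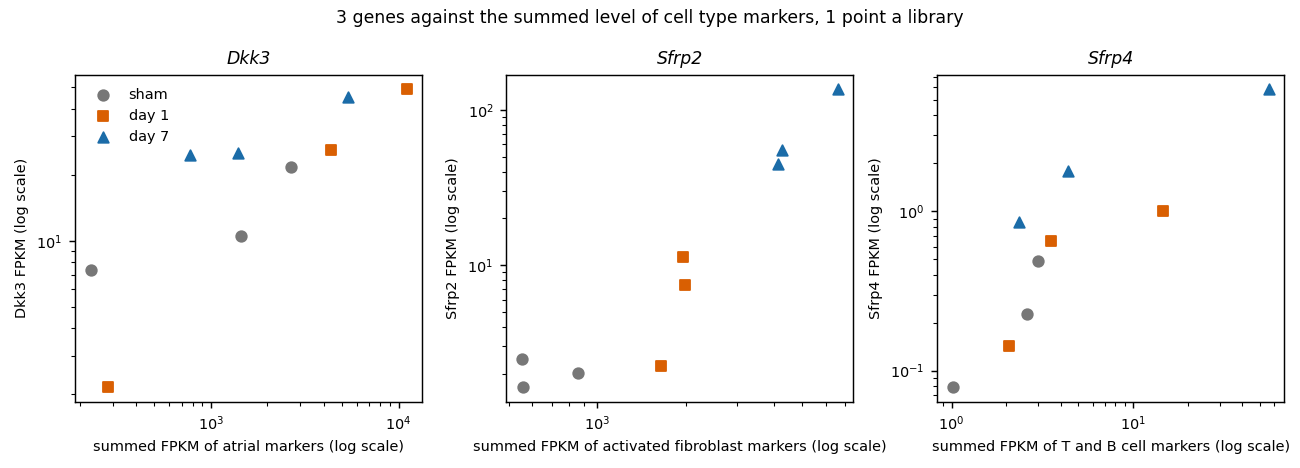
FPKM of Dkk3, Sfrp2 and Sfrp4 (y axes, log scale) against the summed FPKM of atrial, activated fibroblast and T and B cell markers (x axes, log scale), 1 point a library and 1 symbol a group. Dkk3 was lowest, at 2.16 FPKM, in a day 1 library with an atrial sum of 282 FPKM, and highest, at 48.9 FPKM, in the library with 11057 FPKM.

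To place the 10 genes in the pathway, 109 further WNT pathway genes were listed by role, of which 75 passed the filter and 34 did not. At day 1 after infarction 9 of the 75 were called higher and 7 lower, with a median of 0.03, against 13.4% and 14.7% of all genes. At day 7, 25 were higher and 3 lower, with a median of 0.25, against the same 15.7% and 17.3% of all genes. Between the days 5 were higher and 0 lower by limma, against 2.71% and 2.14% of all genes, while at an unadjusted p under 0.05 there were 21 and 4. With TPM scaling no gene of the 75 was lower at day 1 or day 7, and 12 and 37 were higher. Without the libraries with airway markers 3 were higher at day 1 and 12 at day 7. Leaving out 1 library at a time gave 4 to 13 higher and 0 to 7 lower at day 1, and 16 to 29 higher and 1 to 4 lower at day 7. Between the days it gave 0 to 5 higher. The fewest higher calls at day 1 and day 7 came without sham replicate 2, and at day 7 equally without sham replicate 3.

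Among the 4 other ligands tested, 2 were higher at day 7, where 15.7% of all genes were called higher and 17.3% lower. Wnt11, a ligand known for planar polarity signalling in heart development, went from 1.53 to 5.42 FPKM (difference 1.41, SE 0.27; limma, adjusted p = 0.00839), and Wnt4, known from kidney and gonad development, from 0.317 to 2.08 FPKM (1.15, SE 0.30). Wnt4 passed the filter only through its day 7 libraries, so its call is no support, and without it 24 of the other 74 wider pathway genes were called higher at day 7. Wnt5b was lower at day 1 (-0.60, SE 0.15). Of the 12 other receptors and co-receptors, 4 were higher at day 7. The planar polarity co-receptor Ptk7 rose at day 1 (0.80, SE 0.16) and was at 7.19 against 2.02 FPKM at day 7 (1.42, SE 0.16; limma, adjusted p = 0.00204). Fzd8 (0.91, SE 0.16), the WNT5A co-receptor Ror2 (0.72, SE 0.15) and Fzd7 (0.61, SE 0.15) made up the rest. Of the 6 other antagonists, Igfbp4 was higher at both times (1.00 and 1.40, SE 0.32) and Apcdd1 at day 7 (1.19, SE 0.24). The DKK receptor Kremen1 was lower at day 1 (-0.78, SE 0.18).

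Of the 10 genes of the R-spondins, their receptors and WNT secretion, 3 were higher at day 7 and 1 lower. The shares of all genes called at day 7 were 15.7% higher and 17.3% lower. Rspo1, a secreted WNT enhancer, rose from 1.02 FPKM at day 1 to 6.03 FPKM at day 7 (1.83, SE 0.39; limma, adjusted p = 0.0383). Gpc6 was higher by 0.99 (SE 0.25) and Wls, which carries WNT ligands to the cell surface, by 0.64 (SE 0.14) than in sham. Gpc1 was lower at both times (-0.63 and -0.61, SE 0.19), and Lgr4, an R-spondin receptor, was lower at day 1 (-0.31, SE 0.10). In the cytoplasmic and nuclear machinery, 6 of 21 were higher and 1 lower at day 7, all by small amounts. Tcf7l1 (0.50, SE 0.15), Pygo2 (0.41, SE 0.10) and Dvl2 (0.39, SE 0.11) were among the former, and Pygo1 (-0.54, SE 0.15) was the latter. Of the same 21 genes, 3 were higher and 1 lower with quantile normalization, and 7 and 0 with TPM scaling.

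Among the 11 beta-catenin target genes, 3 were called higher at day 1, where 13.4% of all genes were, and 4 at day 7, where 15.7% were. By limma none was called lower, where 14.7% and 17.3% of all genes were. Wisp1, a matricellular target gene, was at 0.482 FPKM in sham, 4.47 FPKM at day 1 and 9.25 FPKM at day 7 (1.86 and 2.72, SE 0.27). Cd44, which is also a leukocyte and fibroblast surface receptor, was highest at day 1, with 31.5 FPKM against 10.1 FPKM in sham (1.56, SE 0.18), and at 19.5 FPKM at day 7 (0.89, SE 0.18). Nkd2, a feedback inhibitor, rose between the days from 1.37 to 8.18 FPKM (1.79, SE 0.34; limma, adjusted p = 0.0279). Myc was higher at day 1 (0.85, SE 0.20) and not called at day 7 (0.36, SE 0.20), and the cell cycle gene Ccnd1 was higher at day 7 (0.73, SE 0.22). Axin2, Nkd1, Tcf7, Fosl1, Bambi and Ccnd2 were tested and called in none of the comparisons. Lef1 and Sp5, also on this list, did not pass the filter. Among 11 planar polarity genes, 4 were higher and 1 lower at day 7. Rhou, a small GTPase, was higher at both times (1.15 and 1.11, SE 0.17), as was Dact1 (0.48 and 1.10, SE 0.15). Dact3 rose between the days (1.13, SE 0.25), and the formin gene Daam1 was lower at both times (-0.49 and -0.58, SE 0.12).

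**Figure D5:**
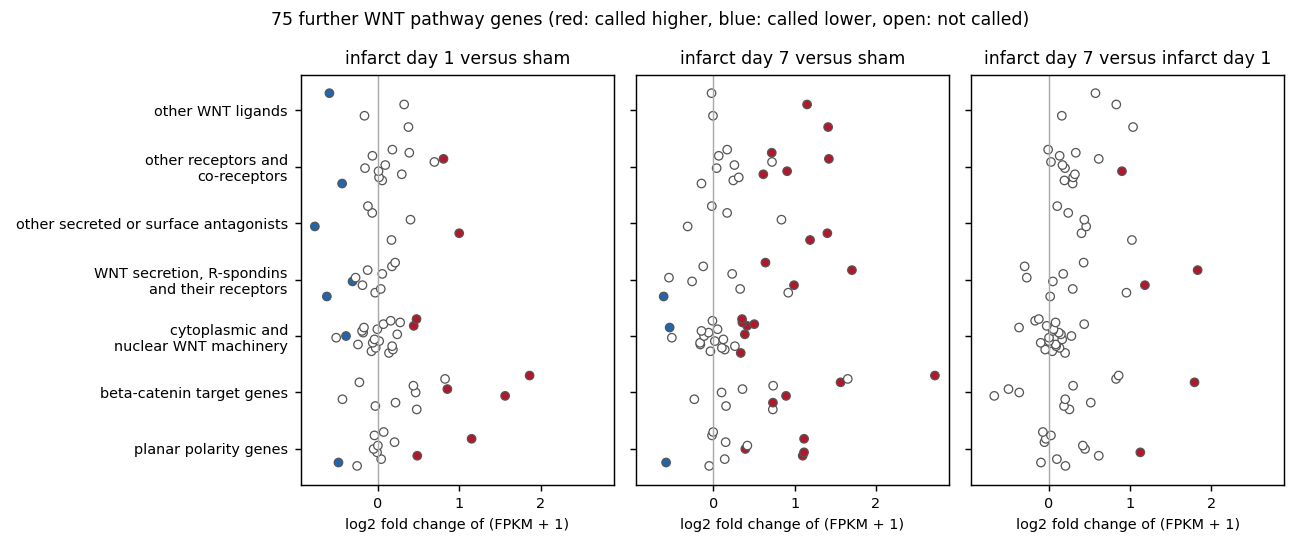
Log2 differences of (FPKM + 1) (x axis) for 75 further WNT pathway genes by role (y axis), 1 point a gene, with red for called higher, blue for called lower and open for not called. The right tail of the day 7 panel holds Wisp1 at 2.72 and Rspo1 at 1.70.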

How the data were processed

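RNA was sequenced in 9 libraries of wild-type mouse hearts, 3 a group. TRIzol and a VAHTS Universal V6 kit were used, per the labels' protocols. The submitters' processing notes name HISAT2 2.1.0, HTSeq 0.11.2, FastQC 0.11.9 and the build GRCm39. For the annotation release and strand setting, no source used here gives an answer. FPKM values were made by the authors and deposited for 55361 transcript entries. Of the positive values, 11.8% were under 1e-06, so reads had been counted in fractions and the depth is unknown. FPKM totals were 521643 to 792632 a library.

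The entries of a gene were summed to 25468 genes. The 13514 genes with a mean of at least 1 FPKM were put on the log2(FPKM + 1) scale. R 4.3.3 and limma 3.58.1 gave the fit, with 1 mean a group, a variance trend, all 9 libraries in 1 fit and no replicate block. Tests were two-sided with Benjamini-Hochberg adjustment, and the code was tested on simulated data. Named were all 10 members and, of each pathway list, up to 4 called genes a comparison with the largest differences. The beta-catenin target genes that were not called were named as well. The summed FPKM was given of the marker lists that set a library apart or moved with a result. The 3 protein coding genes most like each member, with a mean of at least 5 FPKM, were also named, except 1 that is not reported here. The members and lists were chosen with earlier results of these data known. Promoters were read from a RefSeq table of GRCm38.p6, and overlapping genes from GENCODE M21 of GRCm38, both of another build than the files and used by name only. Alternatives were another pseudocount (0.1), no filter or 5 FPKM, quantile, median-ratio and TPM scaling, no trend, only the groups compared, a replicate block, the top transcript entry, and leaving out libraries. Leaving out the pair highest in atrial markers was chosen after seeing the data.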

Additional observations from a re-analysis of the deposited data

Results flagged for a closer look

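For 5 of the 10 genes the difference from sham at day 7 was not the same as that at day 1. Since both use the same sham libraries, the test of this is the contrast of day 7 with day 1. In that contrast 2.71% of all genes tested were called higher and 2.14% lower. Sfrp2 differed by 3.33 on the log2(FPKM + 1) scale (SE 0.52; limma, adjusted p = 0.0158), and all 3 day 7 libraries were above all 3 day 1 libraries. Sfrp1 differed by 1.48 (SE 0.25; adjusted p = 0.0206) and Frzb by 1.48 (SE 0.34; adjusted p = 0.0453), again with no overlap. The call of Frzb was lost in 13 of 21 alternatives. Wnt9a differed by 0.68 (SE 0.09; adjusted p = 0.0105), from a level at day 1 not called different from sham to one above it at day 7. Fzd1 differed by 0.65 (SE 0.11; adjusted p = 0.0205), a further step in the direction it had taken at day 1. Without day 1 replicate 2 only Wnt9a and Sfrp2 were called, and without both libraries with airway markers none of the 5 was, with adjusted p from 0.0723 to 0.165.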

How the results depend on the processing

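The day 7 calls of Sfrp1, Sfrp2, Frzb, Wnt9a and Fzd1 against sham held in all alternatives run in which the gene was tested. Counts are given as day 1, day 7 and day 7 against day 1, with those printed that moved by over 1.5 times. Where a count changed, the cause was not tested, apart from the smaller number of genes or libraries. Members called higher (1, 7 and 5 as reported) numbered 4 at day 7 with a mean of 5 FPKM or more, and 2 between the days with TPM, 1 with only the 2 groups compared, 0 without the 2 libraries with airway markers and 3 without the 2 highest in atrial markers. Without the airway libraries it was 0 at day 1. Leaving out 1 library gave 1 to 3, 5 to 9 and 2 to 5, and no alternative gave a member called lower.

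Of the wider pathway genes, 9, 25 and 5 were higher. At day 1 there were 3 without the airway libraries. At day 7 there were 12 with a mean of 5 FPKM or more, 12 without the airway libraries and 15 without the atrial ones. Between the days there were 2 with no filter, 2 with 5 FPKM, 10 with quantile normalization, 1 with TPM, 1 with only the 2 groups, 1 with the replicate block, 2 without the airway libraries and 2 without the atrial ones. Leaving out 1 library gave 4 to 13, 16 to 29 and 0 to 5. The 7 lower at day 1 became 0 with TPM, 0 without the airway libraries and 4 without the atrial ones. The 3 lower at day 7 became 1 with no filter, 0 with TPM, 1 with the replicate block and 1 without the airway libraries. Leaving out 1 library gave 0 to 7 and 1 to 4.

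Of all genes tested, 1817, 2127 and 366 were higher and 1993, 2341 and 289 lower. With a mean of 5 FPKM or more, 1199, 1310 and 242 were higher. With TPM, 3809 were higher at day 7 and 113 between the days, and 601, 527 and 72 were lower. With only the 2 groups compared, 80 were higher and 90 lower between the days. Without the airway libraries, 245, 1086 and 32 were higher and 142, 1054 and 24 lower. Without the atrial libraries, 1113 and 97 were higher and 1097 and 74 lower at day 7 and between the days. Leaving out 1 library gave 952 to 1952, 1120 to 2278 and 74 to 272 higher and 792 to 2305, 1033 to 2625 and 55 to 235 lower.

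The labels share replicate numbers between groups. Over the 9 pairs of libraries with the same number the deviations from the group means correlated at -0.37 to 0.27 (median 0.054). Over the 18 other pairs they correlated at -0.53 to 0.40 (median -0.021). These ranges overlap, and some libraries share markers of other tissue. Whether the numbers pair the libraries therefore cannot be told from these values. With the replicate block 144 genes were higher and 93 lower between the days, and the members called higher numbered 1, 7 and 4.

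Directions that turned were all of differences that were not called. Wnt9a at day 1 was 0.077 with TPM. Wnt5a at day 1 was -0.023 with quantile normalization, -0.067 without day 1 replicate 1, -0.067 without the atrial libraries and up to 0.34 without another library. Dkk3 at day 1 was -0.50 without day 1 replicate 1, -0.50 without the atrial libraries, -0.048 without day 1 replicate 2 and 1.49 without replicate 3. Between the days it ran from -0.22 without day 1 replicate 3 to 1.77 without replicate 1. Wif1 at day 1 ran from -0.88 without day 1 replicate 1 to 0.29 without replicate 3. Between the days Wif1 was 0.034 without the airway libraries, -0.93 without day 1 replicate 3, 0.24, 0.034 and 0.14 without day 1 replicate 1, day 1 replicate 2 and day 7 replicate 1, and 0.60 without the atrial libraries.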

Other observations

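The genes whose log2 levels followed each member most closely over the 9 libraries were sought among 8570 protein coding genes with a mean of at least 5 FPKM. These correlations describe 9 libraries that share their groups and the libraries that stand apart, and carry no test. Sfrp2 was followed by Mfap4, Ltbp3 and Col14a1, genes of the extracellular matrix, each with a Pearson correlation of 0.99. Sfrp1 was followed by the matrix genes Svep1 and Col16a1 (0.99 each) and by Fkbp9 (0.98), and Frzb by Gab2, Lhfp and the matrix proteoglycan gene Bgn (0.99 each). Fzd1 was followed by Ptgis, Smo and Foxp1 (0.98 each), and Fzd2 by Mtch1 and Lrrk1 (0.97 each). Wnt9a was followed by Dnm1 (0.99), Itm2a and Thbs2 (0.98 each), and Wnt5a by Cc2d2a (0.98), Pkhd1l1 and Scn7a (0.96 each). Dkk3 was followed by Fmo2 and Cdh11 (0.95 each) and Scrn1 (0.93). Wif1 had the lowest correlations, with Rictor (0.94), Foxo3 (0.90) and Luc7l2 (0.89), and Sfrp4 was followed by Hist3h2a (0.98), 4833420G17Rik and Ccdc9 (0.96 each).

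Among the members, Sfrp1 correlated at 0.97 with both Frzb and Sfrp2, and at 0.83 and 0.78 for the deviations from the group means. Dkk3 and Wnt5a correlated at 0.93, and at 0.94 for the deviations from the group means, so that their levels moved together within groups although neither was called at day 7.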
